A study of Mus musculus with 4 samples.

Results

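The genes described here are 8 mouse transcripts used as markers of fetal-like and regenerative gut epithelium: Ly6a, Clu, Anxa1, Il33, Sprr1a, Emp2, Il1rn and Spp1. They were taken by gene name from the non-control spots of every array, which gave 10 probes of 39429 and 8 of 30175 gene names on the array. Anxa1 and Emp2 had 2 probes each and the other members 1. The members were chosen with their signals on these arrays known, so that their differences are a description and support nothing.

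RNA was measured on 1-colour Agilent arrays in 4 samples of wild type C57/BL6 mice, with 1 array for each of whole intestine, crypt, and the crypt-villus organoid samples labelled y- organoid and o- organoid. Intestinal stem cells sit at the base of crypts, small pits in the gut epithelium, and organoids are epithelial structures grown from such cells in culture. What y and o stand for, the culture conditions, the age and number of the mice and any pooling are not stated in the labels. The o-organoid sample was labelled from 40 ng of RNA, the remaining 3 from 20 ng. With 1 array per group there is no replicate and no test, and each difference compares arrays, not conditions.

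After injury, in fetal life and in some cultures, gut epithelium can leave the adult stem cell programme and express a set of genes that the resting adult crypt hardly uses. Ly6a (Sca-1), Anxa1 and Clu are among the best known of these genes, and the Hippo pathway effector YAP with its TEAD partners is known to act on part of the set. Several are also made outside the epithelium: Ly6a by endothelium and lymphocytes, Spp1 by macrophages and Il33 by stromal and endothelial cells.

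The sequences of the coding probes of Anxa1 and Emp2 are shown because these genes alone were read at more than 1 place in the transcript. Both are 60 bases long and are given 5′ to 3′ in lower case. They lie near the 3′ end of each coding region; the other probe of each gene lies further downstream.
Anxa1 coding probe: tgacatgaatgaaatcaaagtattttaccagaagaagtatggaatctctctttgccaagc
Emp2 coding probe: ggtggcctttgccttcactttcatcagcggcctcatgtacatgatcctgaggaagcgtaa
In the probe coordinates of build mm9 (NCBI37), the Anxa1 coding probe lay on chromosome 19 at 20449722 to 20449781 (minus strand) and the other Anxa1 probe at 20447938 to 20447997. The Emp2 coding probe lay on chromosome 16 at 10284525 to 10284584 (minus strand) and the other Emp2 probe at 10281969 to 10282028. The single probes lay on chromosome 15 at 74825553 to 74825612 for Ly6a, on chromosome 14 at 66600325 to 66600382 for Clu, on chromosome 19 at 30035101 to 30035160 for Il33 and on chromosome 3 at 92287955 to 92288014 for Sprr1a. Those of Il1rn and Spp1 lay on chromosome 2 at 24205094 to 24205153 and on chromosome 5 at 104868502 to 104868561.

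The 250 bases before the start site are shown for Anxa1, Emp2 and Sprr1a, as RefSeq gives them for build GRCm38.p6, because the first pair were far brighter on both organoid arrays than on the crypt array and Sprr1a was not. They are written 5′ to 3′ on the gene's strand, with matches to the motifs named below in capitals. Coordinates are chr19:20390672-20390921, chr16:10313969-10314218 and chr3:92485882-92486131, all on the minus strand.
Anxa1 promoter: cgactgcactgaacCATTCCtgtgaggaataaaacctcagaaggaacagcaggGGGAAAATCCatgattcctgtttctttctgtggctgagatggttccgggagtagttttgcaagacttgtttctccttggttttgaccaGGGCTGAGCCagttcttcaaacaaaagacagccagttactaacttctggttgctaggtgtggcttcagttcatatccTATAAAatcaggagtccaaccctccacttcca
Emp2 promoter: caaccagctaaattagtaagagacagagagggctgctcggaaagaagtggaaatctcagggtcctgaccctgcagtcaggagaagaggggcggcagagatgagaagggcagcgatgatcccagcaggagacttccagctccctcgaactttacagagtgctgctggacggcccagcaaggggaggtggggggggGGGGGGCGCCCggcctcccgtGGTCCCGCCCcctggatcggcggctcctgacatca
Sprr1a promoter: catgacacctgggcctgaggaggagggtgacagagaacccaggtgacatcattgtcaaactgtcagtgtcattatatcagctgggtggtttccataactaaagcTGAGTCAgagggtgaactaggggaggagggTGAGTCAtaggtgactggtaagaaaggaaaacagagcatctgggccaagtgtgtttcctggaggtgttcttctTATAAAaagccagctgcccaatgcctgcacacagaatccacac
The table held 10 start sites of 6 members (Anxa1, Emp2, Il1rn, Il33, Spp1 and Sprr1a). Each was searched on both strands for a TEAD motif (GGAATG), an AP-1 motif (TGANTCA), a STAT motif (TTCNNNGAA), an NF-kB motif (by a loose consensus) and a TATA box (TATAAA). A TEAD match stood 236 bases before the start of Anxa1, and others stood before Il33 and Il1rn, while 12.6% of all 32851 promoters of the same length had one. Sprr1a had AP-1 matches at 146 and 116 bases before its start, Il1rn had one at 141 bases, and such matches were in 6.75% of all promoters. TATA matches stood before Sprr1a (43 bases), Anxa1 (32 bases), Il33 and Spp1, and in 12.4% of all promoters. Emp2 had NF-kB matches and no other, at 56, 55 and 35 bases before its start, the first pair overlapping. Anxa1 had NF-kB matches at 197 and 109 bases, Il1rn had them too, and such matches were in 45.8% of all promoters. A STAT match was in none of the members' windows and in 7.02% of all. These matches describe letters in a window.

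Intensities are the scanner software's processed signals, given with that software's own error estimate (for bright spots a set share of the signal, not a replicate error), and levels are on the log2 scale, with the array's 75th percentile as 0. A probe that the software did not flag as well above background is called dim, and its level is only a bound. A fold was then formed against that probe's own signal or the array's lowest well-above-background signal, whichever was higher (the latter was -4.48 on intestine, -4.47 on y-organoid, -5.002 on o-organoid and -4.52 on crypt), and the result is written as at least N-fold. Repeated spots had a log2 SD of 0.0443 to 0.0908 above a level of -2 and 0.155 to 0.281 below it, which leaves out labelling and hybridisation. No member spot was saturated or an outlier.

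Of the 4 arrays, 51.9% to 58.7% of spots were well above background. Epithelial markers were well above background on every array (7 of 7), though Krt20 and Vil1, of differentiated cells, were 34.0-fold and 6.90-fold lower on y-organoid and 42.6-fold and 4.66-fold lower on o-organoid than on crypt. Against intestine, crypt was only 1.67-fold lower for Krt20 and 1.04-fold higher for Vil1. The part of differentiated cells in the crypt sample was not tested. Xist was at -1.17 on the intestine array and dim on the other 3, and the Y-linked Ddx3y was dim on the intestine array and between -1.04 and 0.09 on the others, so the sex of the mice cannot be told apart from tissue wherever the intestine array is compared.

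Surface and membrane members come first. Ly6a encodes a small lipid-anchored protein of the Ly6 family. Its intensity was 2039 ± 204 on the intestine array, 470 ± 47.1 on y-organoid, 458 ± 46.0 on o-organoid and 40.4 ± 6.03 on crypt. It was thus brightest on intestine, lowest but still well above background on crypt, and between these on both organoids. On the log2 scale these levels were 2.40, 0.74, -0.48 and -3.54, and each neighbouring pair in that order lay more than 2 spot SDs apart. Ly6a was 61.4-fold lower on crypt than on intestine, and 19.4-fold higher on y-organoid and 8.31-fold higher on o-organoid than on crypt. The organoids had almost the same intensity of Ly6a but different 75th percentiles (281 and 641), and their difference of -1.23 (o-organoid minus y-organoid) was -0.59 with the scaling of the deposited table. The crypt minus intestine difference of -5.94 was -4.57 after normexp correction and -5.20 under the deposited scaling, under which o-organoid minus intestine moved from -2.89 to -2.02.

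Emp2, a tetraspan membrane protein, had the widest gap between organoids and crypt on the y-organoid array. Its brighter probe read 1768 ± 177 on y-organoid, 2268 ± 227 on o-organoid, 158 ± 16.3 on intestine and 43.4 ± 6.55 on crypt. The coding probe read 1387 ± 139, 773 ± 77.4, 71.2 ± 7.97 and 17.4 ± 4.88, the last of them dim. Both probes thus put both organoids above both tissues, so Emp2 was the single member brighter in culture than in whole intestine by over 4-fold. By the brighter probe it was 68.0-fold higher on y-organoid and 38.2-fold higher on o-organoid than on crypt, and the coding probe gave at least 114-fold and at least 27.7-fold. Against intestine the brighter probe was 15.3-fold higher on y-organoid and 8.62-fold higher on o-organoid. The probes disagreed on the organoids themselves: o-organoid minus y-organoid was -0.83 by the brighter and -2.03 by the coding probe, and under the deposited scaling the former was -0.19.

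**Figure D1:**
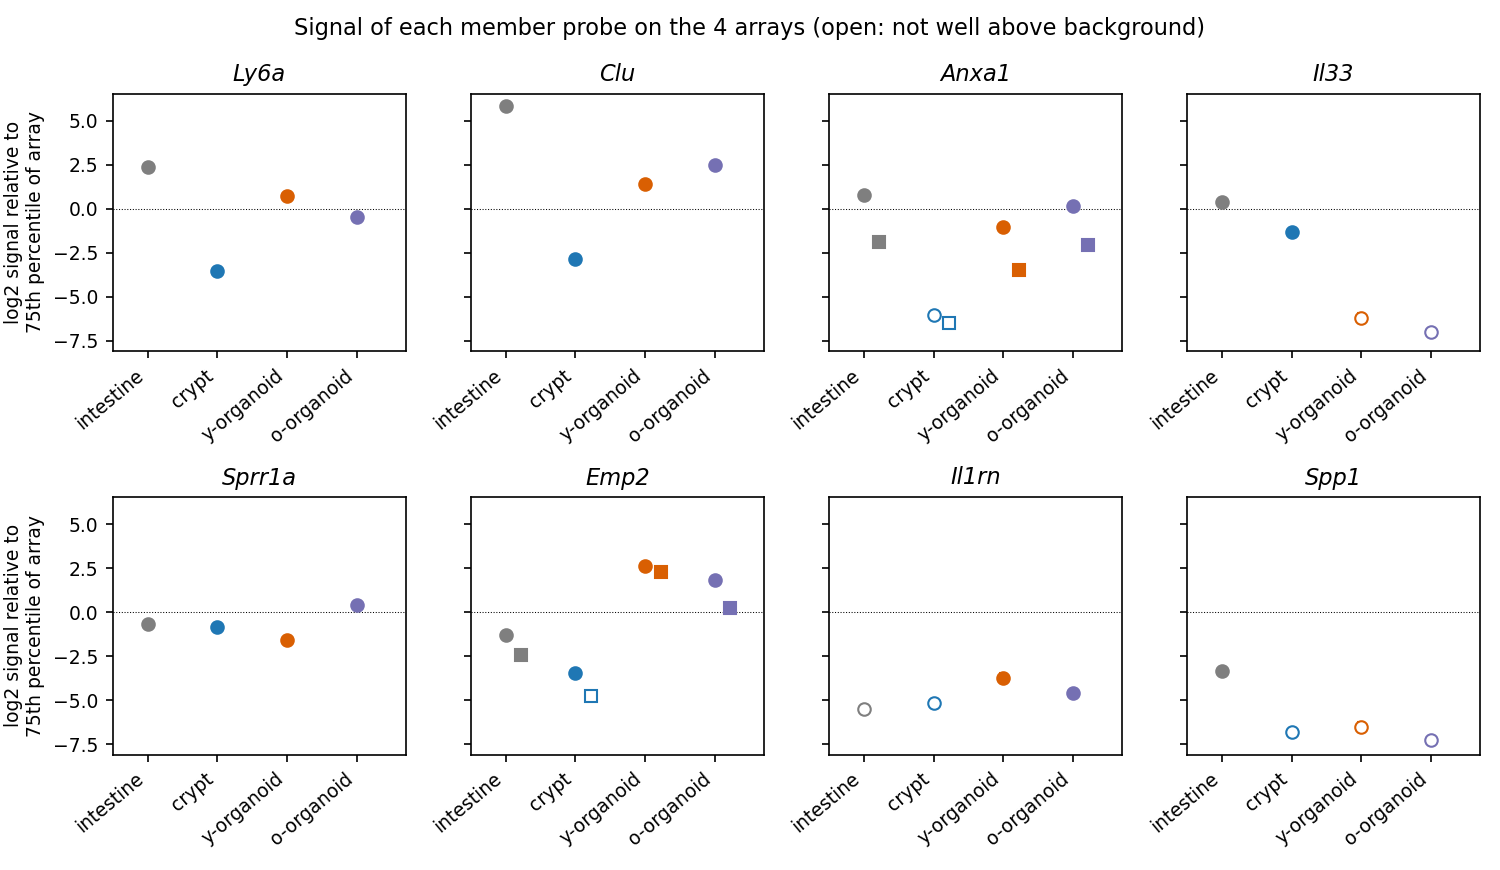
Log2 signal of each member probe relative to the 75th percentile of its array (y axis) on the intestine, crypt, y-organoid and o-organoid arrays (x axis). Circles are the brightest probe of a gene and squares its other probe, bars are the SD of repeated spots at that level (mostly smaller than the symbol) and open symbols are dim. Ly6a, Clu, Anxa1 and Emp2 are lowest on crypt, while Il33 is dim on both organoids and Spp1 is above background on intestine alone.

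Clu, or clusterin, is a secreted chaperone and the marker of the revival stem cells that appear after injury. Its intensity was 22128 ± 2213 on the intestine array, against 3580 ± 358 on o-organoid, 751 ± 75.2 on y-organoid and 66.7 ± 8.18 on crypt. The spread between intestine and crypt was 403-fold, the widest of any member in any comparison; on the log2 scale it was -8.66, or -7.62 after normexp correction and -7.92 under the deposited scaling. Clu was 39.3-fold higher on o-organoid and 18.8-fold higher on y-organoid than on crypt, yet 10.3-fold and 21.4-fold lower than on intestine. Unlike Ly6a and Emp2, Clu was higher on o-organoid than on y-organoid, by 1.06 on the log2 scale (2.09-fold), or 1.70 under the deposited scaling. Its o-organoid minus intestine difference of -3.36 was -2.50 under that scaling.

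Annexin A1, Anxa1, binds membrane phospholipid in the presence of calcium and, once outside the cell, acts on formyl peptide receptors. Its brighter probe read 715 ± 71.7 on o-organoid, 659 ± 66.0 on intestine, 140 ± 14.4 on y-organoid and 7.20 ± 4.91, dim, on crypt. The coding probe read 155 ± 16.2, 106.6 ± 11.4, 25.2 ± 4.43 and 5.27 ± 5.26, again dim on crypt alone. Anxa1 was at least 39.3-fold lower on crypt than on intestine by the brighter probe and at least 6.36-fold lower by the coding one. Against crypt it was at least 25.7-fold higher on o-organoid and at least 11.5-fold higher on y-organoid (at least 5.57-fold and 2.06-fold by the coding probe). The bound of -5.30 for crypt minus intestine became -3.43 after normexp correction and -4.56 under the deposited scaling. Both probes gave o-organoid above y-organoid, by 2.24-fold (1.16 in log2, or 1.80 under the deposited scaling) and 2.70-fold. Between o-organoid and intestine the difference was -0.61, or 0.25 with the deposited scaling, so its direction depends on the scaling, and the coding probe's -0.19 lay within 2 spot SDs.

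Members of the interleukin 1 system took other courses. Il33, an alarmin kept in the nucleus and released on damage, read 506 ± 50.8 on intestine and 189 ± 19.7 on crypt, and was dim on y-organoid (3.89 ± 3.88) and o-organoid (5.08 ± 5.08). It was 3.25-fold lower on crypt than on intestine, and at least 8.94-fold lower on y-organoid and at least 12.9-fold lower on o-organoid than on crypt. The difference of -1.70 between crypt and intestine was -0.96 under the deposited scaling, under 2-fold. Its course was thus opposite to that of Ly6a, Clu, Anxa1 and Emp2 in culture. With normexp background correction its values against crypt were bounds of -1.02 and -1.87 on the log2 scale. These fell short of 4-fold, so a fall past 4-fold was neither shown nor excluded there. Il1rn encodes the secreted antagonist of the interleukin 1 receptor. It was near the detection limit throughout, at 26.9 ± 5.11 on o-organoid and 21.2 ± 3.96 on y-organoid and dim on crypt (13.4 ± 4.96) and intestine (8.67 ± 3.79). Its only differences were bounds of at least 1.74-fold (y-organoid over crypt) and 1.69-fold (y-organoid over intestine), and 1.80-fold between the organoids (-0.85, or -0.17 after quantile normalization and -0.21 under the deposited scaling). The o-organoid signal of Il1rn lay below the crypt and intestine bounds on the log2 scale, so no fold was formed there.

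Sprr1a and Spp1 complete the set. Sprr1a, a proline-rich precursor of the cornified envelope that is also induced in injured epithelium, read 859 ± 86.0 on o-organoid, 268 ± 27.1 on crypt, 248 ± 25.1 on intestine and 96.5 ± 10.1 on y-organoid. Crypt and intestine differed by -0.17 with a spot SD of 0.12, within 2 spot SDs. The organoids lay on opposite sides of the crypt level: 2.35-fold higher on o-organoid and 1.66-fold lower on y-organoid, which put them 3.90-fold apart. Spp1, osteopontin, is a secreted ligand of integrins and CD44. It was above background on intestine alone, at 39.0 ± 5.21, and dim on crypt (4.18 ± 4.17), y-organoid (3.07 ± 3.06) and o-organoid (4.17 ± 4.16). That left bounds of at least 2.33-fold lower on crypt, 2.24-fold on y-organoid and 3.24-fold on o-organoid, and no value between the latter 3 arrays. For crypt the bound of -1.22 was -0.69 after normexp correction and -0.48 both after quantile normalization and under the deposited scaling.

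Set against all genes, 4 of the 7 members well above background on either array were at least 4-fold lower on crypt than on intestine (Ly6a, Clu, Anxa1 and Emp2), where 7.34% of 18196 genes were; 0 were at least 4-fold higher, where 0.363% of genes were. Emp2 was under 4-fold there after normexp correction (-1.17), after quantile normalization (-1.74) and under the deposited scaling (-1.41), which left 3. The members' median difference was -2.15, against 0.06 for all genes. On the y-organoid array the same 4 of 7 were at least 4-fold higher than on crypt, with 4.82% of all genes, and Il33 alone was at least 4-fold lower, with 4.42%; the median was 3.52, against 0.16. On o-organoid against crypt, 6 members gave a difference or bound. The same 4 members were at least 4-fold higher there, with 1.81% of all genes, and Il33 was lower, with 4.52%. The median was 3.87, against -0.00486. The organoid comparisons share the crypt array and the rule used these values, so nothing is read from the shares.

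Between the organoids 0 of 6 members passed 4-fold, where 0.972% of genes were at least 4-fold higher on o-organoid and 3.09% lower. At 2-fold, Clu, Anxa1 and Sprr1a were higher on o-organoid (8.51% of genes) and Ly6a was lower (19.8%). Sprr1a reached 2.06 with quantile normalization and 2.60 with the deposited scaling, past 4-fold. Against intestine, Emp2 was at least 4-fold higher on y-organoid (4.94% of genes) and on o-organoid (3.52%). Clu and Il33 were at least 4-fold lower on y-organoid (10% of genes), and Ly6a, Clu and Il33 on o-organoid (12.4%).

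At 2-fold, crypt against intestine had 0 members higher (6.84% of genes) and 6 lower (14.3%), of which Il33 and Spp1 were under 2-fold with the deposited scaling. Against crypt, y-organoid had 4 higher (18.5%) and 1 lower (13.6%), and o-organoid had 5 higher (8.75%), Sprr1a being added (0.99 after normexp correction, under 2-fold), and 1 lower (14.0%). Against intestine, y-organoid had 1 higher (20.7%) and 5 lower (19.9%), and o-organoid had 2 higher (16.4%) and 4 lower (24.6%). Spp1 is a bound in both lower counts. With the deposited scaling it was -0.93 on y-organoid and -0.83 on o-organoid, under 2-fold, and after quantile normalization -0.97 and -0.79. After normexp correction it was -0.17 on y-organoid and -1.02 on o-organoid. Sprr1a, in the higher count on o-organoid, was 0.89 after normexp correction, under 2-fold.

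How genes past 4-fold divided into higher and lower depended on the scaling, and in 3 of 6 comparisons the larger side changed. The larger side stayed the same for crypt against intestine, y-organoid against intestine and o-organoid against crypt, the last with 303 higher and 756 lower. For crypt against intestine it was 66 higher and 1335 lower, 635 and 913 under the deposited scaling, and 212 and 1078 after quantiles were equalised. For y-organoid against crypt it was 827 and 759, 418 and 1294 under the deposited scaling, and 298 and 482 after normexp correction. For o-organoid against y-organoid it was 164 and 521, 634 and 174 under the deposited scaling, 230 and 337 after quantiles were equalised, and 75 and 137 after normexp correction. Against intestine, y-organoid had 924 and 1869, or 1298 and 1620 with the deposited scaling. For o-organoid these were 650 and 2290, 2506 and 1400 under the deposited scaling, and 1026 and 1762 after quantiles were equalised. The 4 members past 4-fold on both organoid arrays against crypt stayed higher there under each of these scalings. After normexp correction their values against crypt were smaller, at 2.95 (Ly6a), 3.26 (Clu), 2.003 (Anxa1) and 4.59 (Emp2) on y-organoid. On o-organoid they were 1.90, 4.38, 2.91 and 3.91, which put Ly6a under 4-fold there. Those of Anxa1 are bounds, as it was dim on crypt.

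**Figure D2:**
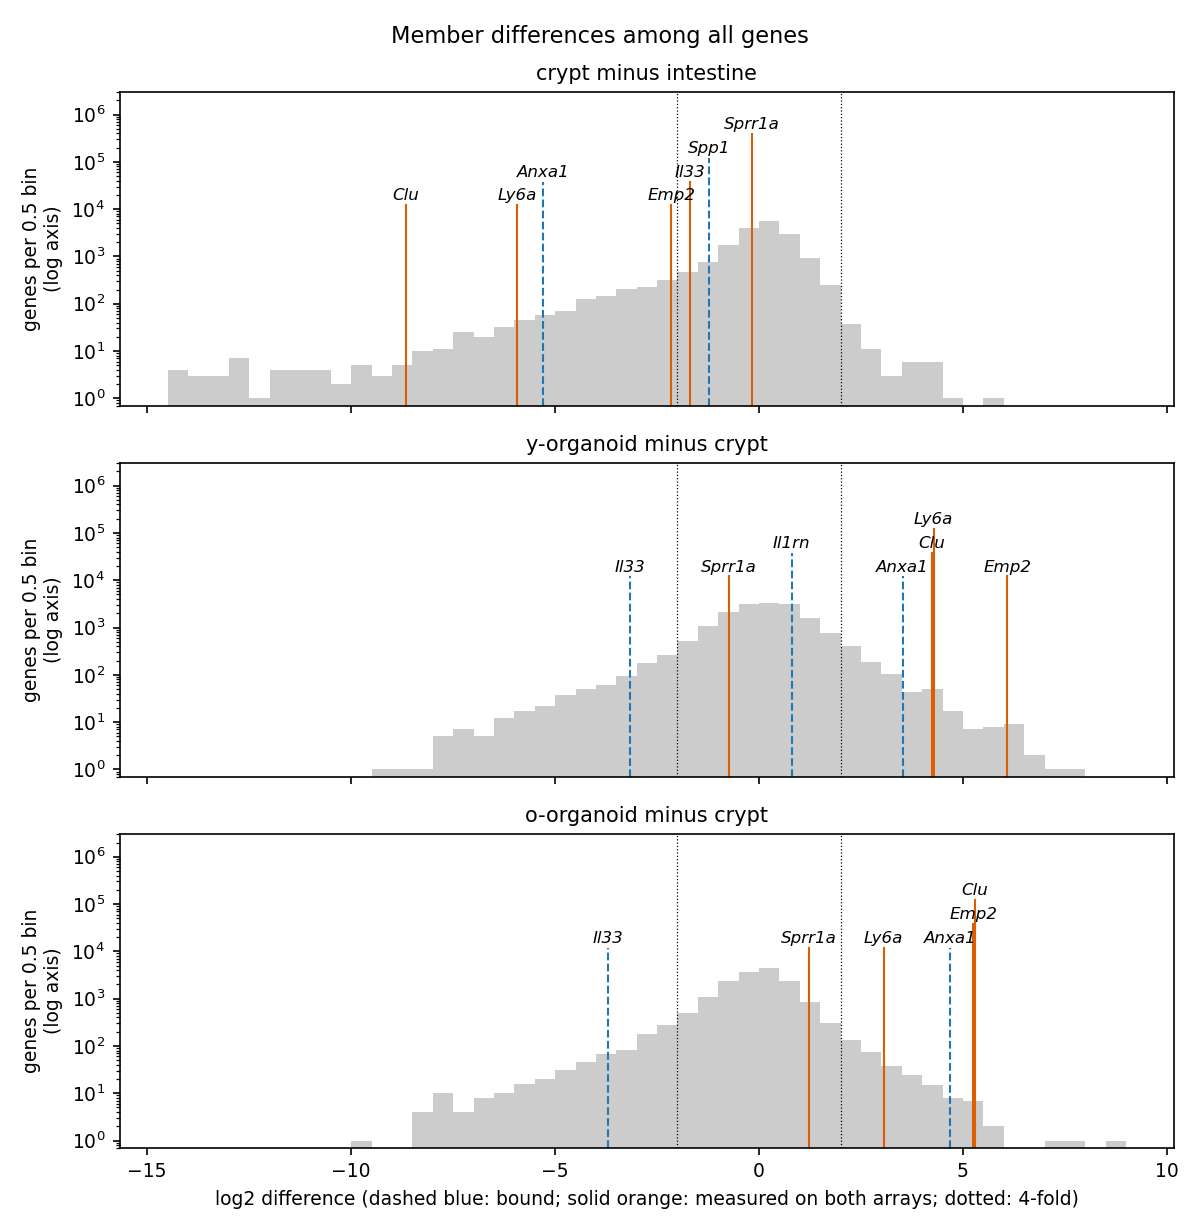
Number of genes per bin of 0.5 (y axis, log scale) by log2 difference (x axis) for crypt minus intestine, y-organoid minus crypt and o-organoid minus crypt. Lines mark the members, solid orange where measured on both arrays and dashed blue where a bound, and dotted lines mark 4-fold. Clu stands at -8.66 in the top panel, Emp2 at 6.09 in the middle panel and Clu at 5.30 in the bottom panel.

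Summed signal of fibroblast, smooth muscle and leukocyte markers was far higher on intestine than on the other 3 arrays. All 6 fibroblast markers (Dcn, Lum, Col1a1, Col1a2, Col3a1 and Pdgfra) were well above background on intestine and dim on the other 3 arrays; their summed intensity over the 75th percentile was 50.4 on intestine and 0.0825 to 0.151 elsewhere. The smooth muscle sum was 85.8 on intestine and 0.327 to 0.554 elsewhere, where 1 or 2 of 6 were above background. For lymphocyte and pan-leukocyte markers the sum was 81.1 on intestine and 0.789 to 1.90 elsewhere, with Jchain dim on all 3 and Ptprc dim on both organoids. Jchain made up most of the intestine sum, at an intensity of 29297, while Cd3e was well above background on all 4 arrays and 2.29-fold lower on crypt than on intestine. The part of these cells in the intestine levels of Ly6a, Clu, Il33 and Spp1 was not tested, and in bulk RNA fewer cells of a type and less RNA per cell cannot be told apart.

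Between crypt and the organoids, fibroblast markers gave no value, being dim on all 3 arrays. Macrophage markers summed to 63.1 on intestine, 27.3 on crypt, 41.0 on y-organoid and 13.1 on o-organoid, with C1qa and C1qc dim on crypt and both organoids, Adgre1 and Lyz2 dim on y-organoid, and 4 of 8 markers above background on y-organoid and 6 of 8 on crypt and o-organoid. Itgam made up most of that sum outside the intestine, by a probe at 4.69 on crypt and 5.31 on y-organoid, while its other probes lay at -3.36 or lower on both organoid arrays. Endothelial markers summed to 7.51 on intestine, 4.44 on crypt, 7.84 on y-organoid and 2.25 on o-organoid. Of the 5, Cdh5, Tek and Emcn were dim on crypt and both organoids, and Kdr, the brightest there, was read by 1 probe while its other probe was dim on all 3. Of 4 mesothelial markers, 0 were above background on crypt and 2 (Msln and Upk3b) on each organoid. The sums were 1.01 on intestine, 0.0405 on crypt, 0.895 on y-organoid and 0.410 on o-organoid. Msln held 214 of the summed intensity of 251.5 on y-organoid and 157 of 263 on o-organoid, where Upk3b stood at levels of -3.19 and -2.72. Lrrn4 was dim on all 4 arrays and Wt1 on all but intestine. Msln is itself among the regenerative genes below, and the part of mesothelium was not tested.

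**Figure D3:**
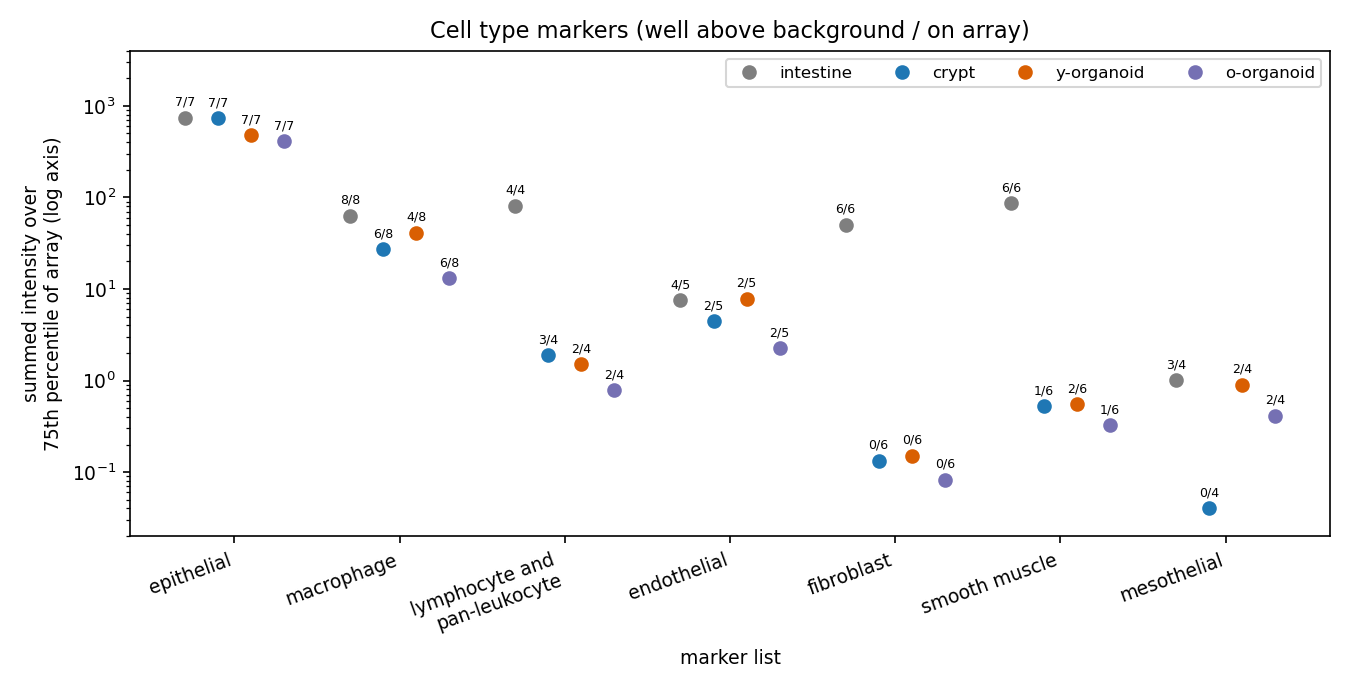
Summed intensity of each marker list over the 75th percentile of the array (y axis, log scale) for 7 cell type lists (x axis) on the 4 arrays. Numbers give markers well above background over markers on the array. Fibroblast markers stand at 50.4 on intestine and at most 0.151 on the other arrays.

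Other genes tied to fetal-like or regenerating epithelium were read from a list of 27, all on the array. This list and those of relatives and partners below were chosen with earlier results of these data known. Their shares and medians are thus a description and support nothing. Of the 23 above background on y-organoid or crypt, 9 were at least 4-fold higher on y-organoid (4.82% of all genes) and 1, Lgals3, lower (4.42%), with a median of 0.9996 against 0.16 for all genes. On o-organoid against crypt, 22 genes of the list gave a difference or bound. Of these, 7 were higher (1.81% of all genes) and again Lgals3 lower (4.52%), with a median of 0.98 against -0.00486. Areg, a ligand of the EGF receptor, stood at 4.05 on y-organoid, 0.90 on o-organoid, -0.28 on intestine and -2.30 on crypt. It was 81.4-fold higher on y-organoid and 9.21-fold on o-organoid than on crypt, and 8.83-fold lower on o-organoid than on y-organoid. Plaur, the urokinase receptor, was 18.8-fold higher on o-organoid and 8.29-fold on y-organoid, and Anxa3, another annexin, 7.23-fold and 10.3-fold. Msln, mesothelin, was at least 17.5-fold higher on y-organoid and at least 5.62-fold on o-organoid. Lgals3, galectin 3, was bright on both tissues (6.12 and 5.54) and 33.0-fold lower on y-organoid and 10.8-fold lower on o-organoid than on crypt. Gja1, a fetal spheroid marker, and Myof were dim on all 4 arrays. Members of the list thus took different courses. Of its 25 members above background on crypt or intestine, 9 were at least 4-fold lower on crypt (7.34% of all genes), led by Ly6d (at least 71.3-fold), Tubb6 (at least 56.4-fold) and Crip2 (23.7-fold), with a median of -1.42 against 0.06.

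**Figure D4:**
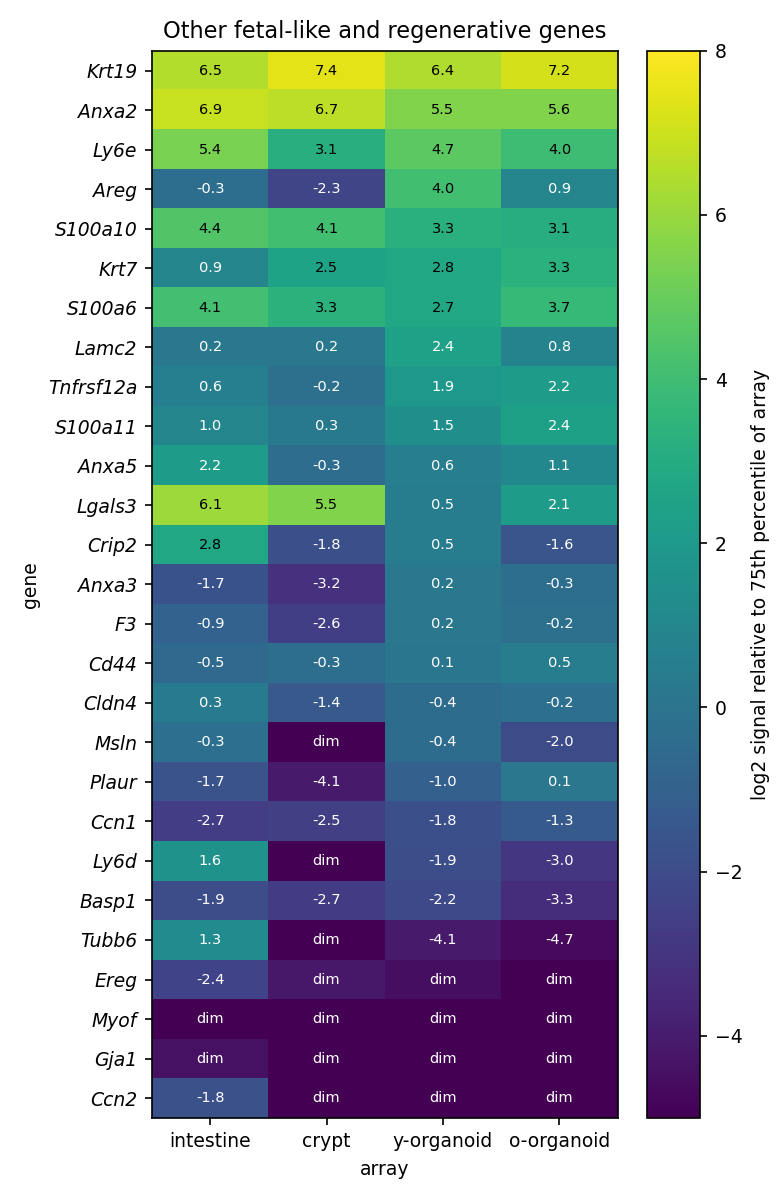
Log2 signal relative to the 75th percentile of the array (colour, from -5 to 8) for the 27 other genes (rows, ordered by y-organoid signal) on the 4 arrays (columns). Cells marked dim were not well above background. Areg reads -2.3 on crypt and 4.0 on y-organoid, and Gja1 and Myof are dim throughout.

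Relatives of the members were read in the same way. In the Ly6 family, Ly6c1 was 86.0-fold lower on crypt than on intestine and 21.7-fold higher on y-organoid and 6.14-fold on o-organoid than on crypt. Its other probe gave bounds of 1.24 on y-organoid and 0.05 on o-organoid, on the log2 scale. Ly6 genes lie close together and are alike, and probes were not searched for shared sequence, so values of single Ly6 genes are uncertain. Ly6d was at least 6.19-fold and Ly6e 2.95-fold higher on y-organoid than on crypt, while Ly6i was above background on crypt alone, at -2.03, and at least 5.43-fold lower on y-organoid and 7.86-fold on o-organoid.

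Among 11 other annexins, 2 were at least 4-fold higher on each organoid than on crypt, Anxa3 and Anxa10, and 0 lower. Of all genes, 4.82% were higher and 4.42% lower on y-organoid, and 1.81% and 4.52% on o-organoid. Anxa6 was 17.6-fold lower on crypt than on intestine. Anxa10, which is known from gastric epithelium, was dim on both tissues and stood at -0.48 on y-organoid and 0.96 on o-organoid, at least 16.5-fold and at least 44.7-fold above crypt. Anxa2, which scaffolds the actin cortex, was lower by 1.16 on both. In the family of Emp2, Pmp22 went the other way and was 9.47-fold lower on y-organoid and 16.8-fold lower on o-organoid than on crypt (its other probe gave -5.41 and -5.95, as bounds). Emp1 lay within 2-fold. Of 14 Sprr relatives of Sprr1a, 12 were dim on all 4 arrays. Sprr2a2 was between 7.51 and 8.39 on all 4 by its probe with the highest mean, though the Sprr2a genes are near-identical copies and its other probes differed.

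Of 8 other interleukin 1 family ligands, 2 were well above background on crypt or intestine. Of 8 receptors, 6 gave a difference or bound there, of which 1 (Sigirr) was above background on crypt. Il18rap was also flagged above background on intestine, but its spot there was an outlier and was left out. Il18, an epithelial cytokine of the family, followed Il33, with levels of 4.21 on intestine, 3.45 on crypt, -1.43 on y-organoid and -1.16 on o-organoid, 29.5-fold and 24.4-fold lower than on crypt. Il1b was above background on intestine alone (-1.56). The Il33 receptor Il1rl1 was also above background on intestine alone (-1.47), at least 8.32-fold above crypt. Il1r1, the receptor that Il1rn blocks, was dim on crypt and both organoids. Sigirr, an inhibitory receptor of the family, lay between 1.38 and 1.93 on all 4 arrays.

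Of 14 receptors and partners of the secreted members, 7 were above background on y-organoid or crypt. Vldlr, a lipoprotein receptor that binds clusterin, was the only one past 4-fold. It was 31.4-fold higher on y-organoid and 14.3-fold on o-organoid than on crypt, and its other probe gave bounds of 1.24 and 0.32 on the log2 scale. Of all genes, 4.82% were at least 4-fold higher and 4.42% lower on y-organoid than on crypt, and 1.81% and 4.52% on o-organoid. Itgb3, Itga4, Itga8 and Itga9, integrin subunits, were at least 22.4-fold, 13.9-fold, 7.11-fold and 13.4-fold lower on crypt than on intestine. They were 4 of the 12 list genes above background on crypt or intestine, and 7.34% of all genes were at least 4-fold lower there. Cd44, a receptor of Spp1, lay within 2-fold of crypt on both organoids by its brightest probe, while another probe gave bounds of 2.48 and 1.92 on the log2 scale and a further one, measured on all arrays, gave 1.63 and 1.07. The formyl peptide receptor gene Fpr2, through which Anxa1 acts, was above background on intestine alone (-3.86).

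Profiles over the 4 arrays were compared with 15654 annotated genes by the root mean square distance of centred log2 levels, with dim values at their floor. Closest to Ly6a were the stress-induced chromatin protein gene Nupr1 (0.29), Ly6c1 (0.33) and Lgals1 (0.44). Clu had no gene nearer than 1.18 (Cavin1, a caveolar coat protein). Anxa1 was nearest to the actin regulators Cnn2 (0.59) and Flna (0.65), then Dennd5a (0.74). Nearest to Emp2 were Ak4 (0.40), Mab21l3 (0.43) and Pip5k1a (0.46). For Sprr1a they were the retinol dehydrogenase gene Rdh10 (0.03), Ugdh (0.10) and Tusc3 (0.12), and for Il33 they were AW112010 (0.04), Parp12 (0.11) and Mbl2 (0.19). Among the members themselves Ly6a and Anxa1 lay 0.95 apart and Il33 and Emp2 4.44 apart. Anxa1 was dim on crypt, as were Cnn2, Ak4 and Mab21l3, so distances that take in any of these rest partly on a bound. Il33 was at its floor on both organoid arrays, so every distance from Il33, including those to AW112010 and Emp2, rests partly on a bound. Parp12 and Mbl2 were dim there too, so these 2 distances rest partly on shared floors. The nearest genes of Il1rn (Spem2, 4930503L19Rik and Nefm) and of Spp1 (Gm5150, Chst7 and Timd4) were dim on the same 2 and 3 arrays as these members, so their distances rest mostly on floors.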

How the data were processed

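Per the labels' protocols, total RNA was amplified and labelled with Cy3 and put on 1 array per sample. Per the file headers, the authors' deposited intensity files are output of the scanner software Feature Extraction 10.7.3.1, with its detrending steps (spatial, multiplicative) on and surrogates in place of very low signals. Probe coordinates there are of build mm9. The deposited value table holds a ratio: processed intensity over 1 constant per array (40.5, 25.2, 36.9 and 29.5 for intestine, y-organoid, o-organoid and crypt), with column medians of 1.0001, 1.00001, 1.00006 and 1.00002. The labels do not say how that table was made.

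Control spots (1377) and outlier spots were left out, intensities were put on the log2 scale minus the 75th percentile of the array, and, for genes with several probes, the one of highest mean was used. Probes were named through the RefSeq table of assembly GRCm38.p6 (27234 by accession, 3576 by symbol, 565 by synonym, 8054 kept the file's name). Differences were counted at 4-fold among genes well above background on either array compared, with dim sides at their bound. Where the signal above background lay below the other array's bound, no difference was formed and the gene was not counted. The code was tested on simulated data. Alternatives were normexp correction (offset 50, limma 3.58.1), quantile normalization, the deposited scaling, the median over probes, no filter on dim probes, and 2-fold. The number of arrays limits the precision.

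Named genes were all members, up to 3 genes per list and direction past 4-fold in the comparisons of crypt with intestine and of each organoid with crypt, genes taken in by counts of 5 or fewer, and the 3 nearest profiles. Genes outside this rule (Itgam, Kdr, Cd3e, Jchain, Ly6e, Anxa2, Emp1, Sprr2a2, Cd44, Fpr2, Il1r1, Il18rap, Sigirr, Xist, Ddx3y) were chosen after their values were seen. A few list genes are not reported here. The members and lists were chosen with earlier results of these data known.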

Additional observations from a re-analysis of the deposited data

How the results depend on the processing

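No paired analysis was possible because each group has 1 array. Of 41 member differences, 41 kept their direction with normexp correction, quantile normalization, the median over probes and no filter on dim probes, and 39 with the deposited scaling, where Sprr1a (crypt minus intestine, 0.57) and Anxa1 (o-organoid minus intestine, 0.25) turned. With normexp correction, which lifts dim signals, members at least 4-fold lower numbered 0 on y-organoid against crypt and 0 on o-organoid against crypt, in place of 1 (Il33) each, and Ly6a on o-organoid against crypt was 1.90. The Il33 values there are bounds. Emp2 on crypt against intestine fell short of 4-fold under 3 settings: -1.17 after normexp, -1.41 in the deposited scaling and -1.74 after quantile normalization. Members at least 4-fold higher on o-organoid against y-organoid numbered 1 with quantile normalization and 1 with the deposited scaling, in place of 0. At 2-fold, o-organoid against y-organoid had 3 members higher and 1 lower, y-organoid against intestine had 5 lower in place of 2, and o-organoid against intestine had 2 higher in place of 1; more members pass a lower fold. The deposited scaling moved the median of all genes by 0.78 (crypt minus intestine), -0.53 (y-organoid minus crypt), 0.12 (o-organoid minus crypt), 0.63 (o-organoid minus y-organoid), 0.24 (y-organoid minus intestine) and 0.87 (o-organoid minus intestine). Quantile normalization moved it by at most 0.28. The cause of these shifts was not tested. Il1rn and Spp1, near or below the detection limit, gave mostly bounds.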
